A study of Sus scrofa with 50 samples.

Results

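Phase II conjugation enzymes make drugs, hormones and bilirubin water-soluble by attaching a polar group, so that the products can leave in bile or urine. The genes described here are the assembled pig transcripts whose best Swiss-Prot protein match (Swiss-Prot is a curated protein database) carries a recommended name starting with UDP-glucuronosyltransferase (UGT), Glutathione S-transferase (GST), Sulfotransferase (SULT), Glycine N-acyltransferase (GLYAT) or Arylamine N-acetyltransferase (NAT). Transcripts with the same entry name were summed, which gave 37 entries from 87 of 57085 transcripts, among 35133 genes in all. There were 8 UGT entries of 18 transcripts, 16 GST entries of 44, 9 SULT entries of 16, 3 GLYAT entries of 8 and 1 NAT entry of 1. The rule uses names and no measured value.

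RNA-seq libraries were made from 5 tissues (heart, kidney, liver, lung, spleen) of each of 10 Korean minipigs. Of these, 5 are labelled ET-type (S0235, S0242, S0276, S0309, S0326) and 5 are labelled L-type (S0349, S0355, S0377, S0384, S0385). Values of a type are listed in this order. The labels do not spell out the type names, name no treatment or genetic change, and give no age. Levels are TPM (a share of all transcripts corrected for length), each library summing to 1e+06, with no read counts. In bulk tissue a lower TPM cannot tell fewer cells of a kind from less RNA per cell.

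The tissue labels were checked against marker genes. Summed hepatocyte markers (6 genes, such as albumin) lay between 77017 and 209025 TPM in liver and reached at most 386 TPM elsewhere. Proximal tubule markers (6 genes) lay between 1060 and 4278 TPM in 9 kidney libraries, against at most 22.2 TPM in other tissues. The kidney library of S0235 stood apart, with 1.53 TPM of proximal tubule markers, 1238 TPM of T cell markers and 423 TPM of B cell markers. Its kidney values are given separately, and kidney means are over 9 libraries. Heart muscle and alveolar markers also separated their tissues from the others, and red cell markers were highest in spleen.

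UGTs use UDP-glucuronic acid to conjugate bilirubin, steroids and phenolic drugs. GSTs join glutathione to electrophiles, SULTs transfer sulfate from the donor PAPS to steroids and phenols, GLYAT joins glycine to aromatic acyl-CoAs such as benzoyl-CoA, and NATs acetylate aromatic amines. Liver is the organ best known for these reactions, and kidney and lung carry some of them.

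An entry name is that of the closest Swiss-Prot protein, which was a pig protein for 11 of the 87 transcripts (all of GSTA1 and GSTO1, and 3 of the 4 of GSTP1). The median identity of the hits was 83.8% (66.7% to 100%), and 35 hits covered fewer than 100 residues. The names UD2B4, UD2B9, UDB18 and UDB31, the mu-class names GSTM1, GSTM4 and GSTM5, and the pairs GSTP1 and GSTP2, GSTT1 and GSTT3, and ST2A1 and ST2A2 therefore stand for closely related sequences between which reads can be split, and their separate levels are uncertain. Of 26 entries looked up by gene symbol in the RefSeq annotation of Sscrofa11.1, 14 matched. GSTA1 (chromosome 7, 46538743 to 46550781) and GSTA4 (chromosome 7, 46635903 to 46656491) lie 85.1 kb apart. ST2A1 (chromosome 6, 53525496 to 53536723) and ST2B1 (chromosome 6, 53928248 to 53963443) are 391.5 kb apart, and UDB31 (chromosome 8, 66310697 to 66323755) and ST1E1 (chromosome 8, 66811536 to 66838181) are 487.8 kb apart. The assembled transcripts carry no coordinates of their own.

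Liver held the most conjugation enzyme RNA. All 37 entries together made 12373 ± 2009 TPM in liver (SD, n = 10), against 3689.7 ± 666 in lung, 3239 ± 973 in kidney (n = 9), 902 ± 232 in heart and 861 ± 151 in spleen. The families differed in where they were found. UGT totals were 2572 ± 888 TPM in liver, 277 ± 130.0 in lung and 142 ± 123 in kidney, and only 7.27 ± 3.22 in spleen and 4.51 ± 1.43 in heart. GST totals were 5493 ± 1738 in liver and still 867 ± 241 TPM in heart, where they made most of the sum. SULT totals were 1964 ± 832 TPM in liver, 1501 ± 705 in kidney and 1062 ± 239 in lung, ranges that overlapped.

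**Figure D1:**
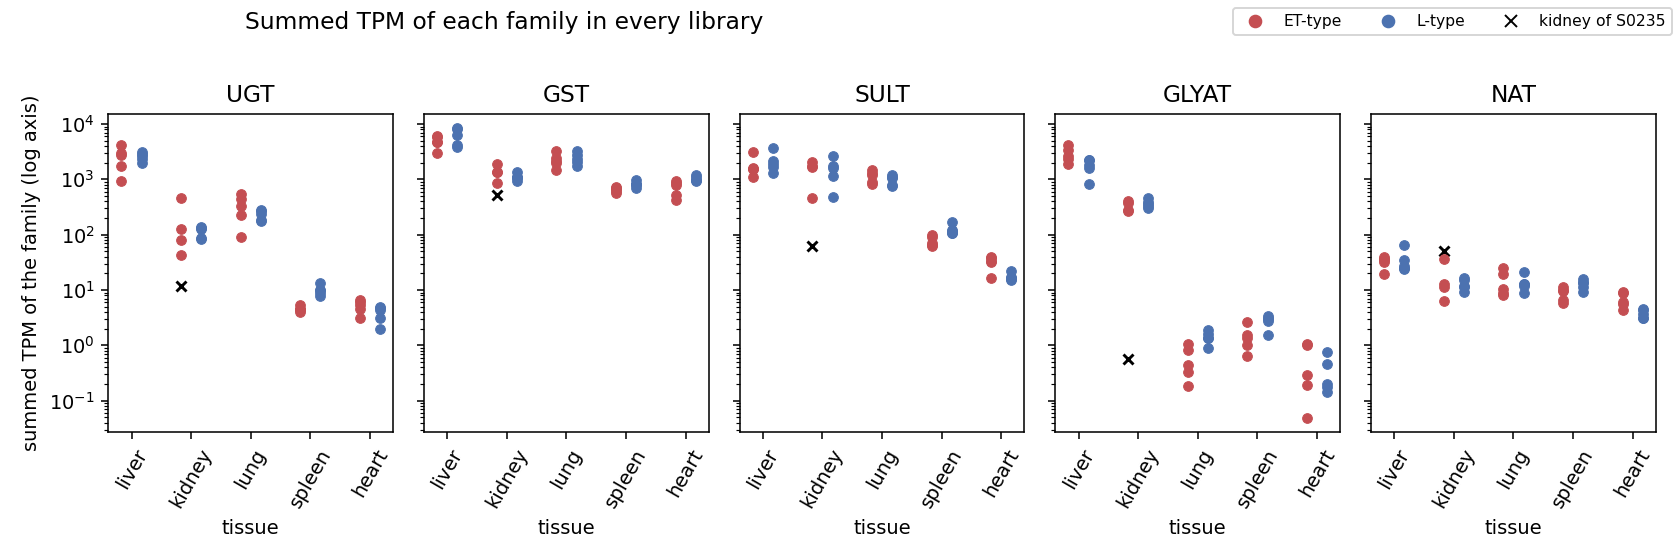
Summed TPM of each enzyme family (log axis) in every library by tissue, ET-type in red and L-type in blue, with the kidney library of S0235 as a black cross. Leaving the cross aside, GLYAT totals are at or above 271 TPM in liver and kidney and at or below 3.41 TPM in lung, spleen and heart, while GST totals are at or above 417 TPM in every library.

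Each tissue was compared with the mean of the other 4 in a fit of all genes over 49 libraries. An entry was called higher in a tissue at an adjusted p below 0.05 and a log2 difference of at least 1, where in addition both type means of the tissue were above all type means elsewhere. By this rule 19 of the 37 entries were higher in liver (52.8% of the 36 tested, against 6.78% of all genes), 5 in lung (13.9% against 21.3%), 1 in kidney (2.78% against 9.07%) and 0 in heart (4.56%) or spleen (7.06%). In heart and spleen 34 and 24 entries were at an unadjusted p below 0.05 (limma), and 3 and 10 of the 36 differences there were positive. No share over all genes was taken for these counts, so they are not read as particular to the members. The members' medians there were -1.80 and -0.98, against -0.65 and -0.14 over all genes. An entry could enter the fit through 1 tissue with high values, since the filter was a mean of 1 TPM over all libraries. All-gene medians of these contrasts were -0.56 in liver, 0.66 in lung and -0.65 in heart, and -0.15, -0.044 and -0.20 after median-ratio scaling, so differences are best read against them. Entries whose libraries in a tissue were all above every library of the other tissues numbered 9 in liver (25% of 36, background 2.46%) and 2 in lung (5.56%, background 6.73%), and 0 in heart (1.77%), kidney (2.05%) or spleen (1.93%). ST4A1, known from human brain, was the entry not tested, with at most 0.325 TPM in any library.

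**Figure D2:**
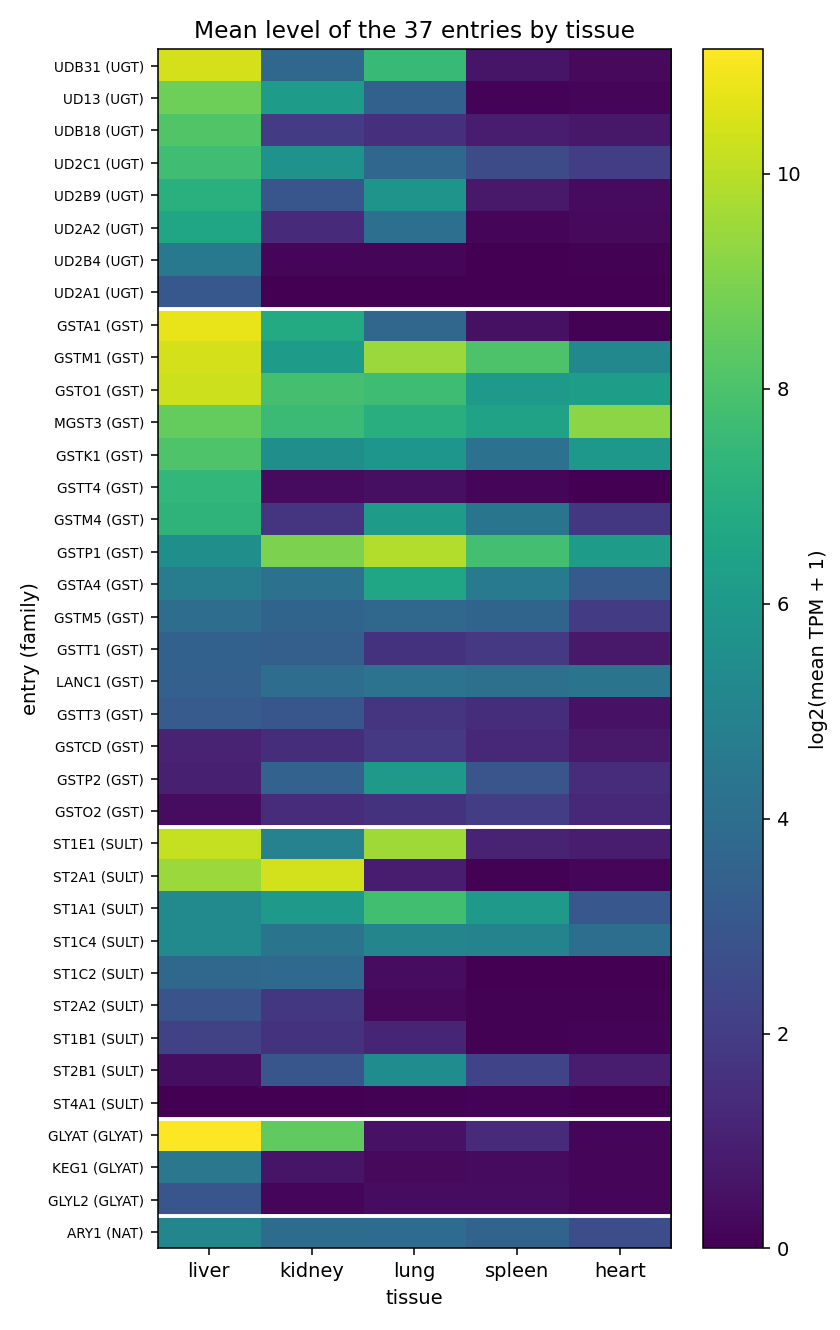
Mean level of the 37 entries by tissue as log2(mean TPM + 1), in 5 blocks by family and ordered within each by the liver mean, with kidney over 9 libraries. The UGT and GLYAT blocks are bright mainly in liver, and ST2A1 in kidney and liver, GSTP1 in lung and kidney, and MGST3 in heart depart from the liver pattern.

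All 8 UGT entries were higher in liver (background 6.78% of genes). UDB31, named after a dog UGT2B enzyme, was the most abundant, at 404 to 2386 (median 1462) TPM in the 10 livers. It reached 65.1 to 357 TPM in lung, 0.993 to 25.5 in kidney and no more than 2.17 in spleen or heart. By animal, livers were at 1479, 1641, 859.9, 2386 and 404 TPM in ET-type and 1837, 1445, 1659, 1003 and 1322 TPM in L-type pigs. All livers were above all other libraries, and the liver difference was 7.45 ± 0.24 (SE; adjusted p = 5.30e-29, limma). UD13, the only UGT1-type name, had 419 ± 130.2 TPM in liver and 67.9 ± 78.7 in kidney (SD), and the kidney of S0242, at 273 TPM, exceeded the liver of S0326 at 96.5. UDB18 was at 282 ± 123 TPM in liver and 99.0-fold lower in kidney. UD2B4 (21.9 ± 8.19 TPM) and UD2A1 (7.39 ± 4.89 TPM) were listed below 1 TPM in every library of other tissues.

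Other UGT entries were shared with lung or kidney. UD2B9 was at 133 ± 38.0 TPM in liver and 54.6 ± 49.2 in lung, where single animals ranged from 15.2 to 158. UD2A2, named after an enzyme known from the human nasal lining, was at 92.1 ± 50.7 TPM in liver. In lung it was 19.4, 49.5, 43.5 and 39.2 TPM in S0235, S0309, S0355 and S0377 and at most 1.49 TPM in the other 6 animals. Lung values thus fell into 2 separate ranges that did not follow type. Summed airway markers (3 genes, including uteroglobin) were 19508, 46585, 6870.1 and 36822 TPM in those lungs and 3127 to 41032 in the others, and their part was not tested. UD2C1 was at 214 ± 103 TPM in liver, 50.1 ± 39.8 in kidney and 12.3 ± 2.60 in lung, and its spleens (2.46 to 9.17 TPM) and hearts (1.25 to 5.16 TPM) were the highest of any UGT entry.

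The transcripts summed into an entry did not share 1 pattern. UDB31 held 6 transcripts. The longest hit, 503 residues of a transcript of 2590 bases, was at 822 ± 305 TPM in liver, 162.7 ± 68.4 in lung and 10.8 ± 8.05 in kidney. A transcript of 1261 bases was at 209 ± 127 TPM in liver and at most 0.0162 TPM on average elsewhere. A transcript of 7465 bases was likewise at 127 ± 26.3 TPM in liver and at most 0.0663 TPM elsewhere, so part of this entry was seen in liver alone. In UD2C1, a transcript of 2957 bases was in liver (134 TPM) and kidney (45.9), a transcript of 6683 bases in liver (75.2 TPM, at most 0.223 elsewhere), and a transcript of 4678 bases was highest in lung (9.66 TPM) and made 74.0% of the entry in spleen.

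**Figure D3:**
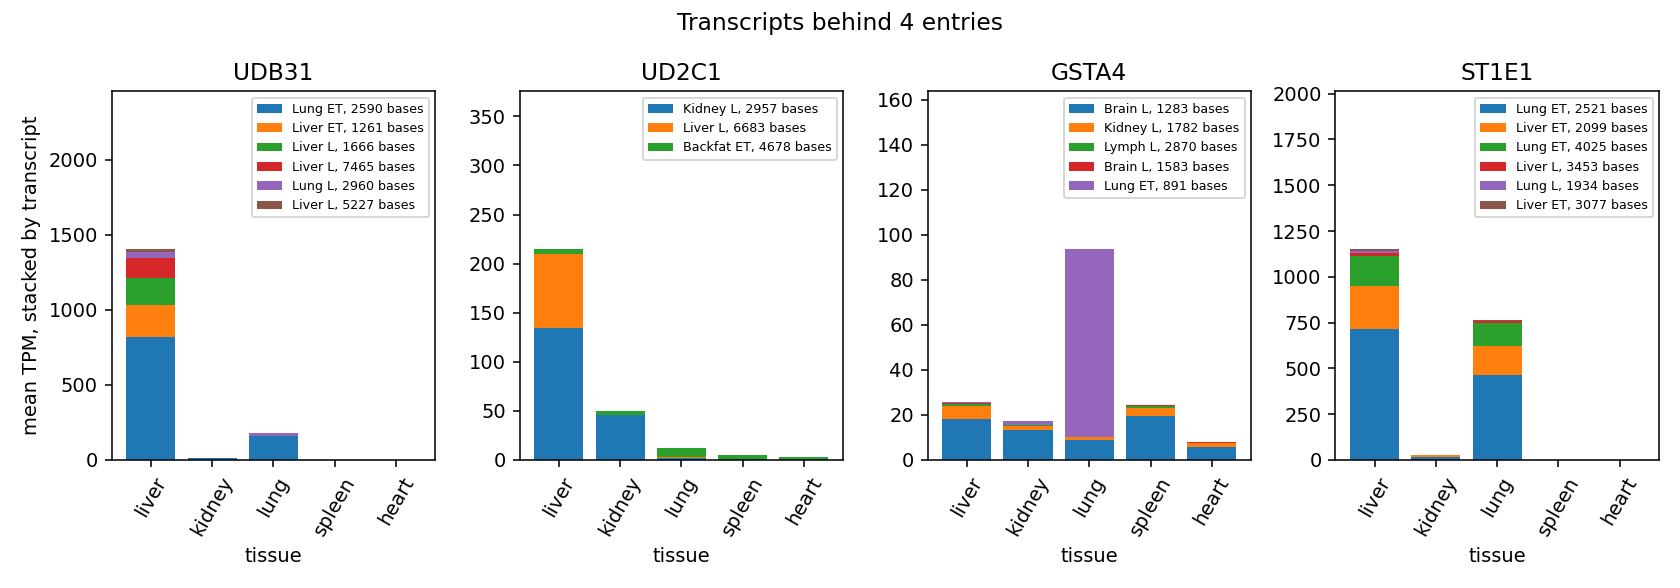
Mean TPM by tissue of 4 entries, stacked by assembled transcript, with the tissue and type of the assembly and the transcript length in the legend. The tall lung bar of GSTA4 is nearly all from the transcript of 891 bases, while in ST1E1 liver and lung show similar proportions of the same transcripts.

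Among the 16 GST entries, 6 were higher in liver (background 6.78% of genes), 3 in lung (background 21.3%) and 7 in no tissue. GSTA1, the alpha-class enzyme and the most abundant GST entry, ranged over 596 to 3829 (median 1632) TPM in liver and 13.0 to 386 (median 74.2) in kidney. ET-type livers were at 2114, 2604, 1352, 730.3 and 751 TPM and L-type livers at 3829, 1214, 2574, 596 and 1912 TPM, so the types overlapped. It was at 11.7 ± 15.8 TPM in lung and below 2 TPM in spleen and heart, and its liver difference was 8.28 ± 0.41 (SE; adjusted p = 3.21e-22, limma). GSTO1, an omega-class enzyme that also reduces methylated arsenic, was at 1258 ± 479 TPM in liver, and GSTK1, the mitochondrial and peroxisomal kappa enzyme, at 269 ± 48.1 TPM in liver against 60.2 ± 17.7 in heart. GSTT4 was at 82.3 to 258 (median 162) TPM in liver, at 0 in all 10 hearts, and at most 1.11 TPM in any other library. It rested on 1 transcript of 651 bases with a hit of 123 residues.

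The mu-class entries were spread over liver, lung and spleen. GSTM1 was at 1396 ± 1102 TPM in liver, 721 ± 336 in lung, 261 ± 94.5 in spleen, 71.8 ± 25.7 in kidney and 35.6 ± 7.62 in heart (SD). Liver and lung ranges overlapped, since livers ran from 254 to 3776 TPM. GSTM4 had 152 ± 167 TPM in liver and 71.1 ± 44.2 in lung, and the same 4 livers, S0326, S0349, S0377 and S0385, were the highest for both entries. Both liver calls were lost without S0326 and without S0384, since a liver type mean (log2 scale) was then below a lung type mean. GSTM5 ranged over 0.904 to 64.0 TPM in liver with means between 2.97 (heart) and 15.1 TPM (liver).

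GSTP1, GSTP2 and GSTA4 were the 3 of 16 GST entries higher in lung (background 21.3% of genes). GSTP1, the pi-class enzyme that is typical of tissues outside the liver in humans, was at 939 ± 299 TPM in lung, 498 ± 132 in kidney, 227 ± 78.6 in spleen, 68.9 ± 11.3 in heart and 45.7 ± 30.6 in liver. Its lung difference was 2.78 ± 0.18 (SE; adjusted p = 1.33e-18, limma). In liver it was highest in S0235 (117 TPM) and S0326 (75.2 TPM), where bile duct markers (3 genes) summed to 1.80 and 173 TPM, against 6.88 to 73.7 in other livers. Their part was not tested, and the 2 livers held the lowest and the highest of these sums. GSTP2 was at 43.1 to 107 (median 59.6) TPM in lung, above all other libraries, of which the kidney of S0276 came nearest at 19.3 TPM. The calls for GSTP1 and GSTA4 were lost after median-ratio scaling.

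GSTA4, an alpha-class enzyme for the lipid peroxidation product 4-hydroxynonenal, was made of transcripts of opposite distribution. A transcript of 891 bases whose hit was to the mouse protein at 85.6% identity was at 83.2 ± 86.8 TPM in lung, 1.80 ± 1.002 in kidney, 0.329 ± 0.229 in liver and 0 in heart and spleen. A transcript of 1283 bases with 98.6% identity to the bovine protein was at 18.4 TPM in liver, 19.5 in spleen, 13.3 in kidney, 8.74 in lung and 5.96 in heart. The higher lung level of the entry thus came from the shorter transcript, which made 88.9% of it there. Lung totals were 225, 90.1, 46.5, 193 and 12.3 TPM in ET-type and 30.7, 226, 54.7, 35.1 and 20.9 TPM in L-type animals, and S0235, S0309 and S0355 were far above the rest. These 3 lungs also had the highest GSTA1, at 37.5, 41.3 and 20.3 TPM against at most 5.71 in the other 7.

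MGST3, a membrane-bound enzyme of mitochondria and the endoplasmic reticulum, had its highest mean in heart, as did LANC1. Hearts ranged over 218 to 924 (median 656) TPM and livers over 121 to 796 (median 331) TPM, which overlapped, and the entry was not called higher in heart unless mitochondrial transcripts, the 10 highest genes, or S0309 were left out. The theta-class entries GSTT1 and GSTT3 were at 10.2 ± 9.20 and 8.25 ± 6.24 TPM in liver and 9.35 ± 4.11 and 6.83 ± 2.38 in kidney. LANC1, a glutathione-binding protein whose Swiss-Prot name is glutathione S-transferase LANCL1, was the most even entry, with means between 9.80 TPM in liver and 18.5 in heart. GSTCD, which shares only a GST-like domain, had means between 0.697 and 2.65 TPM. GSTO2 had means of 0.291 TPM in liver and 3.04 in spleen.

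SULT entries were divided between kidney, liver and lung. ST2A1, which sulfates bile acids and DHEA, was the only entry called higher in kidney (2.78% of entries, background 9.07%). Kidneys ranged over 319 to 2483 (median 1549.5) TPM and livers over 191 to 2536 (median 403) TPM, with at most 2.34 TPM in any lung, spleen or heart library. Kidney and liver overlapped, and the liver minus kidney difference was -1.14 ± 0.28 (SE; adjusted p = 5.10e-04, limma). This call and the kidney call were lost after median-ratio scaling and when the kidney library of S0235 (0.371 TPM) was kept. ST1C2 was also a liver and kidney entry, at 13.2 ± 6.54 TPM in kidney and 12.3 ± 7.78 in liver against at most 0.858 elsewhere. ST2A2 and ST1B1 were low, with their highest means of 6.13 and 3.55 TPM in liver.

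ST1E1, the estrogen sulfotransferase, was high in both liver and lung. Livers ranged over 486 to 2686 (median 1132) TPM and lungs over 376.6 to 1112 (median 791) TPM, while kidney was at 29.7 ± 29.8, and spleen and heart at 1.13 ± 0.473 and 0.844 ± 0.216. ET-type livers were at 1387, 1162, 2686, 1160.2 and 748 TPM and L-type livers at 486, 1298, 584, 1104 and 879 TPM, again overlapping. The liver difference was 6.03 ± 0.20 (SE; adjusted p = 5.53e-29, limma), and the liver call was lost without S0276, S0355 or S0384, for the same reason. ST1A1, the main phenol sulfotransferase of human liver, was higher in lung, at 55.2 to 392 (median 213) TPM. Kidney (65.0 ± 25.2 TPM) and spleen (64.3 ± 25.4 TPM) followed, and 7 of 10 livers were at or below 1.05 TPM. ST2B1, a cholesterol sulfotransferase of skin and other epithelia, was at 19.7 to 77.3 (median 35.5) TPM in lung, above every other library, and its lung difference was 3.73 ± 0.19 (SE; adjusted p = 3.98e-22, limma). ST1C4 was the most even SULT entry, with means from 15.4 TPM in heart to 39.4 in liver.

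All 3 GLYAT entries were higher in liver (background 6.78% of genes). GLYAT itself, the mitochondrial benzoyl-CoA acyltransferase, ranged over 821 to 4153 (median 2199) TPM in liver and 271 to 453 (median 362) in kidney, and was at or below 2.92 TPM in every other library. The liver minus kidney difference was 2.62 ± 0.15 (SE; adjusted p = 1.73e-19, limma), with no overlap. Kidneys were alike, with a coefficient of variation of 17.5% against 40.8% in liver. Of its 6 transcripts, that of 1779 bases with a hit over 295 residues made 50.0% of the liver level and 63.7% of the kidney level, and a fragment of 684 bases was at 188 TPM in liver and 6.13 in kidney. GLYL2 was at 6.91 ± 6.62 TPM in liver and below 1 TPM in every library elsewhere. KEG1 was at 20.4 ± 15.5 TPM in liver, but its hit covered only 36 residues. ARY1, an arylamine N-acetyltransferase, was the only NAT entry, at 33.7 ± 12.6 TPM in liver, 14.6 ± 8.88 in kidney, 13.8 ± 5.86 in lung, 10.6 ± 3.001 in spleen and 5.29 ± 2.17 in heart, and its liver difference was 1.62 ± 0.17 (SE; adjusted p = 2.06e-11, limma). By animal, ARY1 was at 39.9, 35.7, 31.9, 34.6 and 19.5 TPM in ET-type and 34.5, 64.8, 23.6, 24.9 and 27.5 TPM in L-type livers.

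Liver and kidney, the organs through which conjugates are excreted, differed in 28 of the 36 tested entries (77.8%, against 66.4% of all genes). In 21 the liver was higher, where 13.9% of all genes were. The kidney was higher in 7 (background 52.5%), namely GSTO2, GSTP1, GSTP2, LANC1, ST1A1, ST2A1 and ST2B1, and LANC1 (then 0.080, the opposite sign) and ST2A1 (-0.52) lost that call after median-ratio scaling. That scaling also moved the balance over all genes, from 4135 of 19750 calls higher in liver (20.9%) to 7829 of 18079 (43.3%). GSTP1, for example, was at 498 TPM in kidney against 45.7 in liver. Its difference was -3.62 ± 0.23 (SE; adjusted p = 2.41e-18, limma).

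The kidney library of S0235 lacked the kidney pattern. GLYAT was at 0.150 TPM, ST2A1 at 0.371, GSTA1 at 0.0607 and UD13 at 0.873, against lowest values of 271, 319, 13.0 and 12.1 TPM in the other 9 kidneys. GSTA4 (104 TPM), ARY1 (51.5) and GSTM5 (30.9) were above all 9. The collecting duct marker AQP2 was at 0.00956 TPM in it, against 161 to 772 TPM in the others. Summed T cell markers in the other kidneys were 6.49 to 37.3 TPM.

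Related genes (cofactor supply, other conjugating and deconjugating enzymes, exporters, transcription factors and NRF2 targets) were taken from 9 lists (67 of 75 genes were found). Of 65 tested, 29 were higher in liver (44.6%, background 6.78%), 7 in kidney (10.8%, background 9.07%), 7 in lung (10.8%, background 21.3%, or 2520 in place of 6340 genes after median-ratio scaling), 3 in spleen (4.62%, background 7.06%) and 0 in heart. Of 4 genes tested for UDP-glucuronate supply, 3 were higher in liver, namely UGDH, which makes the acid, UGPA and PGM1. UGDH stood 2.22 ± 0.18 (log2, SE) above the other tissues. Of 8 genes of glutathione supply, the cysteine-making enzymes CBS (4.67 ± 0.21) and CGL (5.04 ± 0.26), GSHR and GSH0 were higher in liver, and the gamma-glutamyltransferases GGT1 (5.67 ± 0.22) and GGT5, which take glutathione conjugates apart, in kidney. Of 6 genes of sulfate activation, the PAPS synthases PAPS1 (2.56 ± 0.12) and PAPS2 (2.90 ± 0.17) and the PAPS transporter S35B2 were higher in lung, and the sulfate carrier S26A1 in liver. PAPS2 was at 125 ± 32.1 in ET-type and 102 ± 12.7 in L-type animals, in TPM of lung.

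Of 5 tested genes of acyl-CoA supply, which gives GLYAT its substrate, 4 were higher in liver (S27A5, ACSM3, ACSM4 and ACSM5), where 6.78% of all genes were. The remaining gene, the medium-chain acyl-CoA synthetase ACS2A, was higher in kidney, at 6.12 ± 0.21 (log2, SE). The dipeptidase DPEP1 (7.05 ± 0.16) and the aminoacylase ACY1, of mercapturate processing, were also higher in kidney, and beta-glucuronidase (BGLR) in liver. Among 6 exporters, MRP2 (4.58 ± 0.13) and MRP6 were higher in liver, MRP4 in kidney and MRP3 in lung. Of 13 transcription factors, 7 were higher in liver (background 6.78% of genes), 2 in lung (CEBPB and ARNT, background 21.3%) and none of the 13 in the other tissues. Those of liver included the xenobiotic receptors NR1I2 (4.96 ± 0.11) and NR1I3 and the hepatic factor HNF4A (5.23 ± 0.093). Against kidney alone, liver was higher by only 1.49 ± 0.14 for NR1I2 and 0.56 ± 0.12 for HNF4A (log2, SE). NRF2 target genes were higher in spleen for HMOX1 and NQO1 and in liver for GSH0, of 8 tested.

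ET-type and L-type animals were then compared within each tissue, by a fit over all genes. No member passed an adjusted p of 0.05 in liver (0 of 33 tested, background 0.00933%), heart (0 of 15, 0.0238%), kidney (0 of 31, 0.00376%) or lung (0 of 27, 0.213%), by limma. No listed supply, export or factor gene passed in these 4 tissues either. At an unadjusted p below 0.05 there were 10 in liver, 7 in heart, 3 in kidney and 0 in lung, where 6.58%, 22.2%, 8.7% and 16.2% of all genes were. In spleen 2 of 21 entries (9.52%) were lower in ET-type animals, where 21.5% of all genes were lower and 0.696% higher. In heart 0.0143% of all genes were higher and 0.00952% lower. The labels show 5 separate animals per type, of which the kidney fit holds 4 of the ET-type. The p-values of these fits within a tissue measure the spread between animals. Those of the fits of 49 libraries treat the libraries of 1 animal as separate, except where the animal is a replicate block.

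**Figure D4:**
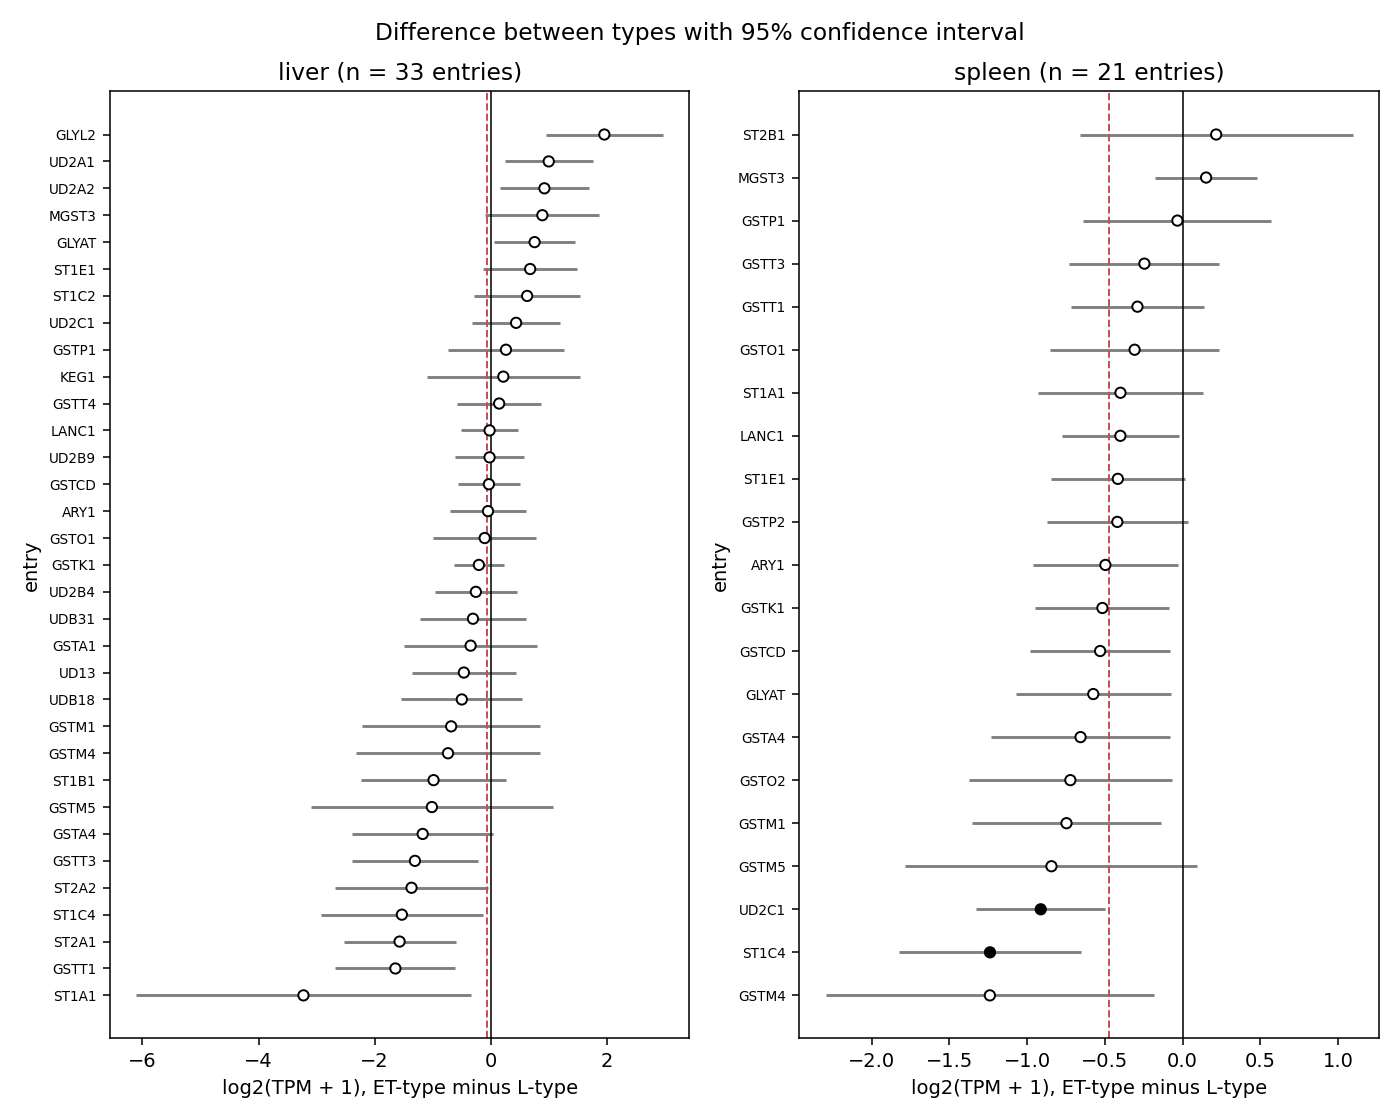
Difference between types in liver (33 entries) and spleen (21 entries) on the log2(TPM + 1) scale, ET-type minus L-type, with 95% confidence intervals, filled points for an adjusted p below 0.05, and the median of all genes as a dashed red line. No liver entry is filled, and in spleen UD2C1 and ST1C4 are filled while 19 of 21 points lie below 0, on either side of the dashed line at -0.47.

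In liver the entry with the lowest p was GLYL2. It was at 16.8, 7.29, 7.21, 20.1 and 5.85 TPM in ET-type and 0.488, 6.16, 0.990, 2.93 and 1.39 TPM in L-type livers, and only S0355 of the L-type fell inside the ET-type range. The difference was 1.96 ± 0.46 (SE; 95% interval 0.94 to 2.97; adjusted p = 0.335, limma). It was past the threshold when the 49 libraries were fitted together, so that tissues share 1 estimate of the spread, both without a block (adjusted p = 8.47e-06, limma) and with a replicate block for the animal (adjusted p = 7.21e-06). Outside liver GLYL2 was below 1 TPM in every library, so its shared spread rests mostly on values near 0. The joint fits therefore add no separate evidence on its liver difference. GLYAT was also higher on average in ET-type livers, at 1831, 2341, 4153, 2567 and 3359 TPM against 821, 2199, 1611, 1755 and 2198 TPM, with overlap. Its difference was 0.75 ± 0.32 (SE; 95% interval 0.054 to 1.45; adjusted p = 0.725, limma). Hepatocyte markers summed to 77017 to 209025 TPM in ET-type and 147461 to 193230.0 TPM in L-type livers, and their part was not tested.

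ST2A1 was lower in most ET-type livers, at 191, 333, 431, 282 and 328 TPM against 710.4, 374, 1223, 718 and 2536 TPM in L-type livers. The highest ET-type liver, S0276, lay above the lowest L-type liver, S0355, and S0385 was far above the rest. The difference was -1.57 ± 0.44 (SE; 95% interval -2.54 to -0.61; adjusted p = 0.481, limma). GSTT1, at 5.65, 8.91, 2.75, 1.12 and 3.54 TPM against 14.1, 5.80, 31.8, 10.3 and 17.7 TPM, differed by -1.64 ± 0.47 (SE; 95% interval -2.68 to -0.61; adjusted p = 0.502, limma). Again S0355 was the lowest L-type liver and the groups overlapped there. In the joint fit of 49 libraries both passed without a block, at adjusted p = 0.0227 and 0.00479 (limma), and likewise with the replicate block (0.0226 and 0.00431), as did ST1A1, ST2A2 and UD2A1. This made 6 liver entries of 36 in either joint fit against 0 in the fit of livers alone. Over all genes the joint fits called 386 and 390 of 29725 in liver, against 2 of 21445 in livers alone. GLYL2 and UD2A1 were below 1 TPM in every library outside liver, and ST2A1 and ST2A2 had means below 1 TPM in heart, lung and spleen. The shared spread of such entries rests largely on values near 0, so the joint counts add no separate evidence for them. ST1A1 and GSTT1 had coefficients of variation over both types of 199% and 90.6% in liver. In the other tissues these were 38.7% to 55.3% and 25.1% to 78.1%. The shared spread averages liver with these tissues, so the joint counts are no separate evidence for these 2 entries either.

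ST1A1 had the widest spread in liver of the 33 tested entries, with a coefficient of variation of 199%. ET-type livers were at 0.192, 1.05, 0.718, 0.879 and 1.03 TPM, and L-type livers at 12.9, 0.724, 198, 0.338 and 179.8 TPM. Thus S0377 and S0385 were near the level of lung, S0349 was intermediate, and the other 2 L-type livers lay within the ET-type range. The entry is 1 transcript, and in the same L-type animals its kidney levels were 90.3, 30.2, 96.3, 56.0 and 84.5 TPM and its spleen levels 131, 61.2, 48.0, 69.4 and 64.1 TPM, without such a gap. The liver difference was -3.23 ± 1.32 (SE; 95% interval -6.11 to -0.34; adjusted p = 0.714, limma). ST1C4 was also highest in the livers of S0349, S0377 and S0385, at 69.0, 13.5, 95.3, 33.5 and 78.0 TPM in L-type against 15.5, 23.7, 11.7, 50.1 and 3.99 TPM in ET-type livers. Its difference was -1.53 ± 0.64 (SE; 95% interval -2.93 to -0.13; adjusted p = 0.718, limma).

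The 8 UGT entries differed in sign between types in liver. UD2A1 was at 5.63, 8.38, 17.8, 5.83 and 14.2 TPM in ET-type and 2.42, 4.54, 3.03, 6.04 and 6.08 TPM in L-type livers, with a difference of 0.998 ± 0.35 (SE; 95% interval 0.24 to 1.76; adjusted p = 0.646, limma). UD2A2 had 123 ± 55.3 against 61.7 ± 20.5 TPM (SD, n = 5 each). UDB31, UDB18 and UD13 were lowest in the liver of S0326, at 404, 65.1 and 96.5 TPM, and all 3 were highest in S0309, so the ET-type livers held both ends of the range. Hepatocyte markers were also lowest in S0326, at 77017 TPM, and their part was not tested. Of the 33 entries, 3 of 8 UGT, 3 of 14 GST, 2 of 7 SULT, all 3 GLYAT and 0 of 1 NAT had a positive difference (11 in all, where 42.6% of all genes did), and their median was -0.21 against -0.060 over all genes.

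In spleen UD2C1 was at 3.24, 3.54, 3.01, 3.57 and 2.46 TPM in ET-type and 7.46, 6.09, 5.80, 5.94 and 9.17 TPM in L-type animals, and the groups did not overlap. The difference was -0.91 ± 0.19 (SE; 95% interval -1.33 to -0.50; adjusted p = 0.0240, limma). ST1C4 was at 20.2, 17.2, 17.3, 29.6 and 9.07 TPM against 33.7, 43.1, 59.0, 33.8 and 49.1 TPM, again without overlap, and differed by -1.24 ± 0.27 (SE; 95% interval -1.83 to -0.65; adjusted p = 0.0248, limma). No overlap was found for 4 of 21 entries (19%, background 15.8%), the others being GSTM4 and ST1E1. GSTM1, the next entry by p, was at 88.9, 225, 231, 169.8 and 291 TPM against 329, 303, 263, 265 and 442 TPM, with S0326 inside the L-type range, and differed by -0.75 ± 0.28 (SE; 95% interval -1.36 to -0.14; adjusted p = 0.0665, limma).

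The spleen differences sat on a shift of the whole tissue. The members' median was -0.50 and that of all genes -0.47, and 19 of 21 members were lower in ET-type spleens, where 13.2% of all genes were higher. After median-ratio scaling 11 of 21 were higher, the all-gene median was 0.010, and UD2C1 (-0.43, adjusted p = 0.115, limma) and ST1C4 (-0.67, adjusted p = 0.0839) were no longer called. Both calls were also lost without S0276, S0326, S0377 or S0385, at adjusted p between 0.0518 and 0.0680. Calls over all genes then dropped from 5339 to 254, 112, 41 and 50 in the same order, so the spleen background also rests on single animals. Red cell markers (3 genes, hemoglobin among them) summed to 110048 to 335770.0 TPM in ET-type and 5475 to 149587 TPM in L-type spleens, and T cell markers (3 genes) to 91.5 to 202 and 198 to 419 TPM. Their part in the differences was not tested. Over all genes 3.13% of the spleen calls were higher in ET-type animals, against 64.6% after that scaling. Of the genes on the 9 lists of related genes, 15 of the 50 tested in spleen (30%, background 21.5%) were called and each was lower in ET-type animals, among them the NRF2 targets GSH1, NQO1, SRXN1 and TRXR1. Examples were GSHR at -1.19 ± 0.27 (SE; adjusted p = 0.0255, limma) and MRP4 at -1.39 ± 0.29 (SE; adjusted p = 0.0240, limma).

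In heart the lowest p was that of ST1A1, at 10.3, 5.59, 9.87, 12.2 and 13.2 TPM in ET-type and 8.16, 2.91, 4.70, 3.67 and 2.02 TPM in L-type animals. All ET-type hearts but S0242 were above all L-type hearts, and the difference was 1.14 ± 0.30 (SE; 95% interval 0.48 to 1.81; adjusted p = 0.0938, limma). ARY1, at 5.64, 4.41, 6.01, 8.70 and 9.27 TPM against 4.41, 4.46, 3.09, 3.17 and 3.69 TPM, differed by 0.68 ± 0.21 (SE; 95% interval 0.23 to 1.13; adjusted p = 0.108, limma). Without S0242 both passed, with adjusted p of 0.0275 and 0.0336 (limma), as did ST1C4. Calls over all genes then rose from 5 of 21014 to 2162 of 21128. GSTK1 was at 53.8, 54.4, 51.6, 42.9 and 33.8 TPM against 57.3, 68.6, 77.3, 66.7 and 95.7 TPM, the only entry of 15 without overlap (6.67%, background 4.68%), and differed by -0.62 ± 0.19 (SE; 95% interval -1.03 to -0.21; adjusted p = 0.109, limma). Differences were positive for 9 of 15 entries in heart and for 58.1% of all genes. MGST3 had 440.1 ± 193 against 744 ± 112 TPM (SD, n = 5 each). Heart muscle markers (5 genes) summed to 18923 to 61599 TPM in ET-type and 68064 to 77859.7 TPM in L-type hearts, lowest in S0309 and S0326, and their part was not tested.

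In kidney the lowest p values belonged to ST1C4, ST1B1 and GSTA1. ST1C4 was at 13.8, 12.7, 9.33 and 8.52 TPM in the 4 ET-type kidneys and 11.7, 12.5, 31.0, 26.9 and 38.8 TPM in L-type kidneys, with overlap, and differed by -0.94 ± 0.38 (SE; 95% interval -1.76 to -0.11; adjusted p = 0.573, limma). ST1B1 was at 1.68, 2.15, 0.722 and 0.570 TPM against 3.88, 1.48, 3.38, 2.99 and 2.33 TPM and differed by -0.76 ± 0.31 (SE; 95% interval -1.44 to -0.087; adjusted p = 0.573, limma). GSTA1 was at 134, 176, 172 and 74.2 TPM in ET-type kidneys and 17.9, 386, 13.0, 16.1 and 25.3 TPM in L-type kidneys. S0355 was above all ET-type kidneys and the other 4 L-type kidneys were below them. The difference was 1.96 ± 0.84 (SE; 95% interval 0.13 to 3.80; adjusted p = 0.573, limma), and 0.57 (adjusted p = 0.912, limma) when the kidney library of S0235 was kept. The all-gene median in kidney was -0.28 and 12 of 31 members were higher in ET-type kidneys (background 20.3%), which became 0.0052 and 22 of 31 after median-ratio scaling.

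In lung the lowest p values were those of GSTO2, UD2B9 and GSTP2. GSTO2 was at 1.67, 2.01, 1.74, 1.08 and 1.31 TPM in ET-type and 2.999, 2.99, 1.32, 2.62 and 3.07 TPM in L-type lungs, where S0377 was the only low L-type lung, and differed by -0.47 ± 0.22 (SE; 95% interval -0.97 to 0.018; adjusted p = 0.324, limma). UD2B9 was at 72.7, 158, 15.2, 119 and 35.7 TPM against 22.8, 21.4, 62.0, 16.8 and 21.8 TPM, with overlap, and differed by 1.19 ± 0.57 (SE; 95% interval -0.069 to 2.45; adjusted p = 0.334, limma). GSTP2 was at 43.1, 57.4, 46.0, 68.4 and 47.4 TPM against 107, 69.7, 92.3, 44.4 and 61.8 TPM and differed by -0.46 ± 0.23 (SE; 95% interval -0.97 to 0.046; adjusted p = 0.352, limma). Alveolar markers (4 genes) summed to 3686 to 8783 TPM in ET-type and 4916 to 25953 TPM in L-type lungs, and airway markers to 12811 to 46585 and 3127 to 36822 TPM, and their part was not tested. The types overlapped in all 27 entries, where 4.2% of all genes did not overlap. The all-gene median was -0.15, and 12 of 27 members were higher in ET-type lungs (background 35.1%), or 17 of 27 after median-ratio scaling.

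Whether the difference between types itself changed from tissue to tissue was tested by the interaction term of the fit of 49 libraries. It was called for 4 of 36 entries (background 6.1% of genes), namely GLYL2 (adjusted p = 9.47e-04, limma), GLYAT (0.0163), UD2A1 (0.0195) and ST1A1 (0.0488). The first 3 were higher in ET-type livers on average. GLYL2 and UD2A1 were below 1 TPM in every library outside liver and entered the fit through liver alone, so on this scale their term restates the liver difference and is no test of a difference between tissues. Both are not tested at a mean of 5 TPM. GLYAT had 2850.1 against 1717 TPM in liver but 329.6 against 366 in kidney. It was at or below 2.92 TPM in every heart, lung and spleen library, so its term rests mostly on liver and kidney. ST1A1 was lower in ET-type livers and higher in ET-type hearts on average. Its call was lost when any animal but S0355 or S0384 was left out. It was also lost with a pseudocount of 0.1, median-ratio scaling, hits of at least 80% identity or the kidney of S0235. The GLYAT and UD2A1 calls were lost without S0276, S0326, S0349 or S0377. The GLYAT call was also lost after median-ratio scaling and with the kidney of S0235. The number of entries called moved between 1 and 7 when single animals were left out, as 1 without S0326, S0349 or S0377, 2 without S0276 and 7 without S0355, and was 7 with the animal as replicate block.

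**Figure D5:**
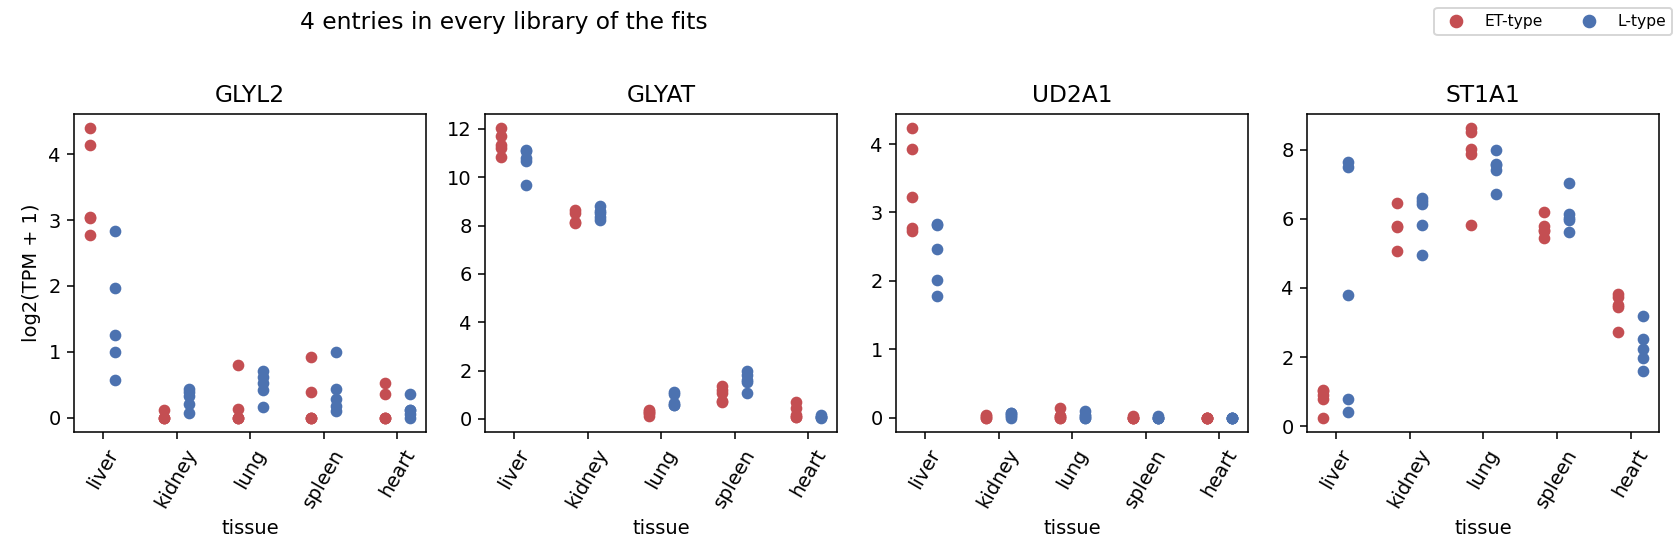
log2(TPM + 1) of GLYL2, GLYAT, UD2A1 and ST1A1 in each of the 49 libraries of the fits, ET-type in red and L-type in blue, by tissue. In liver the first 3 are higher in most ET-type animals, while ST1A1 is near 0 to 1 in all ET-type and 2 L-type livers and above 3 in 3 L-type livers.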

How the data were processed

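TPM values per assembled transcript were deposited by the authors for 50 libraries (total RNA, stranded mRNA kit, per the labels' protocols). The submitters' processing notes name Trimmomatic 0.36, Salmon 1.10.0 and the genome build Sscrofa11.1. The deposited table also gives each transcript's best protein hit, from which entries were formed by summing TPM. TPM is a share of each library, so a very abundant transcript lowers all others, and the read depth is unknown, so no counting error can be given.

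Levels were tested as log2(TPM + 1) with limma 3.58.1 (trended empirical Bayes) in R 4.3.3, over every gene whose mean in the fitted libraries reached 1 TPM, with Benjamini-Hochberg adjustment over all genes tested and calls at 0.05. Fold changes on this scale understate those of low genes. ET- and L-type were compared per tissue (5 against 5 animals, and 4 against 5 in kidney). Tissues were compared over 49 libraries with 10 group means and no replicate block. The fits were also run on simulated data with independent libraries and 1 spread per gene over tissues, which these data do not have. No result here rests on that run.

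Entries above 1 TPM in a tissue may be named. Values per animal are given for entries called between types or the 3 with the smallest p, and for the highest entry of each family. The members, lists and rules were chosen with earlier results of these data known.

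The titles give 5 tissues of each animal, which pairs the libraries: of 96 pairs of tissues of 1 animal, 92 had a correlation of their deviations from the group means above 0.1 (mean 0.257), against a mean of -0.0644 over 384 pairs of different animals. The animal was therefore an alternative replicate block, which for the types needs all libraries in 1 fit. The same joint fit without the block was added after the results were seen. Other alternatives were the pseudocount (0.1), the filter (none, or 5 TPM), median-ratio scaling, leaving out mitochondrial transcripts, the 10 highest genes or hits under 80% identity, keeping the kidney library of S0235, and leaving out each animal.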

Additional observations from a re-analysis of the deposited data

Results flagged for a closer look

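3 values stood far from the other 4 of their type, among 30 groups checked, where chance flags about 1 in 20. GSTA1 was at 385.86 TPM in the kidney of the L-type animal S0355, against 25.3 TPM in the next L-type kidney. In L-type lungs, S0377 was low for GSTO2, at 1.32 TPM against 2.62 in the next animal. The same lung was high for UD2B9, at 62.0 TPM against 22.8 in the next L-type lung, and its airway markers (36822 TPM) were the highest among L-type lungs.

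The interaction test of limma asks whether the difference between types changes between tissues. It called 4 of 36 entries, where 6.1% of all genes were called. These were GLYL2 (adjusted p = 9.47e-04), GLYAT (adjusted p = 0.0163), UD2A1 (adjusted p = 0.0195) and ST1A1 (adjusted p = 0.0488). GLYL2 and UD2A1 entered this fit through liver alone, with less than 1 TPM in every other tissue, so for them the term restates the difference in liver. The ST1A1 call was lost when any animal but S0355 or S0384 was left out. The GLYAT call was lost without S0276, S0326, S0349 or S0377.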

How the results depend on the processing

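Of 393 alternative values for single enzymes, 372 kept their direction and their side of the threshold, 13 lost the call, 8 gained it and 0 reversed. They cover only the entries with the 3 smallest p between types in each tissue and the highest entry of each family. The liver against kidney comparison, where LANC1 changed sign, and the interaction are not among them. Outside spleen, the entries between types were not called to begin with, so keeping their side means staying uncalled. In liver, 19 enzymes were called higher, 15 to 20 under other settings and 16 to 19 when single animals were left out. The lung count of 5 became 3 after median-ratio scaling and 6 with a pseudocount of 0.1. The heart count of 0 became 1 without mitochondrial transcripts or without the 10 highest genes, and was 0 to 1 over animals left out. The kidney count of 1 became 0 after median-ratio scaling or with the library of S0235, 2 without mitochondrial transcripts, and 1 to 2 over animals left out. Between types, liver had 6 calls in place of 0 in a joint fit of 49 libraries, both without a block (an alternative added after the results were seen) and with the animal as replicate block. Of these, GLYL2 and UD2A1 were below 1 TPM in every library outside liver, so their shared spread rests mostly on values near 0. That of ST1A1 and GSTT1 averages liver with tissues of a lower coefficient of variation. Spleen had 0 in place of 2 after median-ratio scaling or with hits of at least 80% identity, where neither entry is left, 3 without a filter, 4 and 3 in the joint fits without and with the block, and 0 to 3 over animals left out. In heart 0 to 3 were called over animals left out. The interaction count of 4 became 2 with a pseudocount of 0.1, a mean of at least 5 TPM, median-ratio scaling or the kidney of S0235, 1 at 80% identity, 6 without mitochondrial transcripts, 7 with the replicate block, and 1 to 7 over animals left out. Apart from fewer entries tested at 5 TPM and 80% identity, the cause was not tested. Both joint fits left the counts between types at 0 in kidney, heart and lung. Over all genes, calls between types moved most, from 737 to 6177 over settings in spleen (5339 as reported) and from 0 to 822 in heart (5 as reported), and over animals left out from 41 to 6179 in spleen and from 0 to 2162 in heart. Depth is unknown, so levels near 0 cannot be told from absence.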

Other observations

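Among other conjugating enzymes, the methyltransferases differed in how they varied between livers. NNMT, which methylates nicotinamide, was at 50.3 ± 31.6 TPM in ET-type and 312 ± 285 TPM in L-type livers (SD, n = 5 each), a difference of -2.27 ± 0.67 on the log2(TPM + 1) scale that did not pass (adjusted p = 0.523, limma). GNMT, which methylates glycine, was at 811 ± 171 against 1278 ± 716 TPM, and AS3MT, the arsenic methyltransferase, at 40.1 ± 7.03 against 29.4 ± 7.62 TPM. MGST1, a microsomal glutathione transferase whose Swiss-Prot name falls outside the naming rule, was at 1134 ± 396 against 1161 ± 206 TPM in liver. Of 12 such enzymes tested, 7 were higher in liver than in the other tissues (AS3MT, GNMT, INMT, MAAI, MGST2, NNMT and TPST1), where 6.78% of all genes were. Against kidney alone, the liver difference of MGST2 did not pass (0.57 ± 0.30, SE; adjusted p = 0.0962, limma).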
